A study of Mus musculus with 152 samples.

Results

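Livers of C57BL/6J mice fed the LIDPAD diet for 48 weeks were compared with livers of mice fed the same diet for 32 weeks. LIDPAD is the name of a diet used here to give mice a fatty, diseased liver. The comparison used 36 of the 152 deposited samples, 16 labelled Week 48 LIDPAD and 20 labelled Week 32 LIDPAD. Each run of 4 consecutive column numbers was averaged as 1 library, which gave 4 libraries at week 48 and 5 at week 32. Feeding began at 8 weeks of age, so the mice were 56 and 40 weeks old, and age and time on the diet moved together. The background is what the mice fed a control diet did over the same interval, in 28 further samples (3 libraries at week 48 and 4 at week 32). The sources used here give neither the sex of the mice nor the hour at which livers were taken, so that hour may differ between the weeks. The labels also do not say that each library came from its own mouse, so the spread behind each p-value may in part be technical.

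Fatty liver disease runs from stored triglyceride in hepatocytes to inflammation, scarring by collagen from activated stellate cells, and nodular or malignant growth. The liver also keeps daily time. CLOCK and BMAL1 (the product of Arntl) switch on genes that hold an E-box, among them those of the PER and CRY proteins, which inhibit CLOCK and BMAL1 in turn, and those of the transcription factors DBP, TEF and HLF. These 3 factors bind D-boxes, where NFIL3 competes with them. The nuclear receptors REV-ERB (Nr1d1, Nr1d2) and ROR bind a common element and repress or activate Arntl and Nfil3. Arntl and Nfil3 therefore peak at about the opposite time of day from Dbp, Tef and Per3.

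Each value is in FPM, the submitters' unit of fragments relative to library size, after the 16 libraries were put on 1 scale. Libraries held 18.4 to 34.6 M reads in Week 48 LIDPAD and 10.9 to 30.2 M in Week 32 LIDPAD. The summed level of the 5 hepatocyte markers was 23816 to 33405 FPM at week 48 and 30253 to 103611 FPM at week 32. Every other marker set for cells of the liver was detected in every library. Single markers, Cpa1 and Pnlip of the exocrine pancreas, Ly6g of neutrophils and Lep of adipocytes, were below 0.1 FPM in all 9 LIDPAD libraries. The sets they belong to were detected there. Pancreas markers summed to 4.03 to 10.4 FPM at week 32 and 4.63 to 5.46 FPM at week 48. Neutrophil markers summed to 1.74 to 26.0 FPM and 3.65 to 6.81 FPM, and adipocyte markers to 0.162 to 24.2 FPM and 4.25 to 7.34 FPM. In bulk tissue, fewer cells of a type and less RNA per cell cannot be told apart.

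The 4 week 48 LIDPAD livers were alike, and the 5 week 32 LIDPAD livers were not. Over 2076 genes with a mean of at least 50 FPM, the standard deviation (SD) of the log2 difference between 2 libraries was 0.189 to 0.337 within week 48. Within week 32 it ran from 0.123, between libraries 4 and 5, to 0.999. The week 48 livers lay 0.346 to 0.451 from week 32 libraries 4 and 5, and 0.481 to 0.907 from week 32 libraries 1 to 3, which lay 0.597 to 0.794 from one another. A technical mark ran along the same line. In week 32 LIDPAD libraries 1 to 3, the third of the 4 columns held the largest share of the reads, whereas in week 32 libraries 4 and 5 and in every week 48 library the first column did. The effect of that mark was not tested apart from the livers that carry it. With week 32 libraries 4 and 5 alone, 13 of the 24 largest changes below lost their call (limma adjusted p 0.0582 to 0.195) and all kept their direction. All 24 passed there once the library labelled Week 48 control 3, described next, was also left out.

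**Figure D1:**
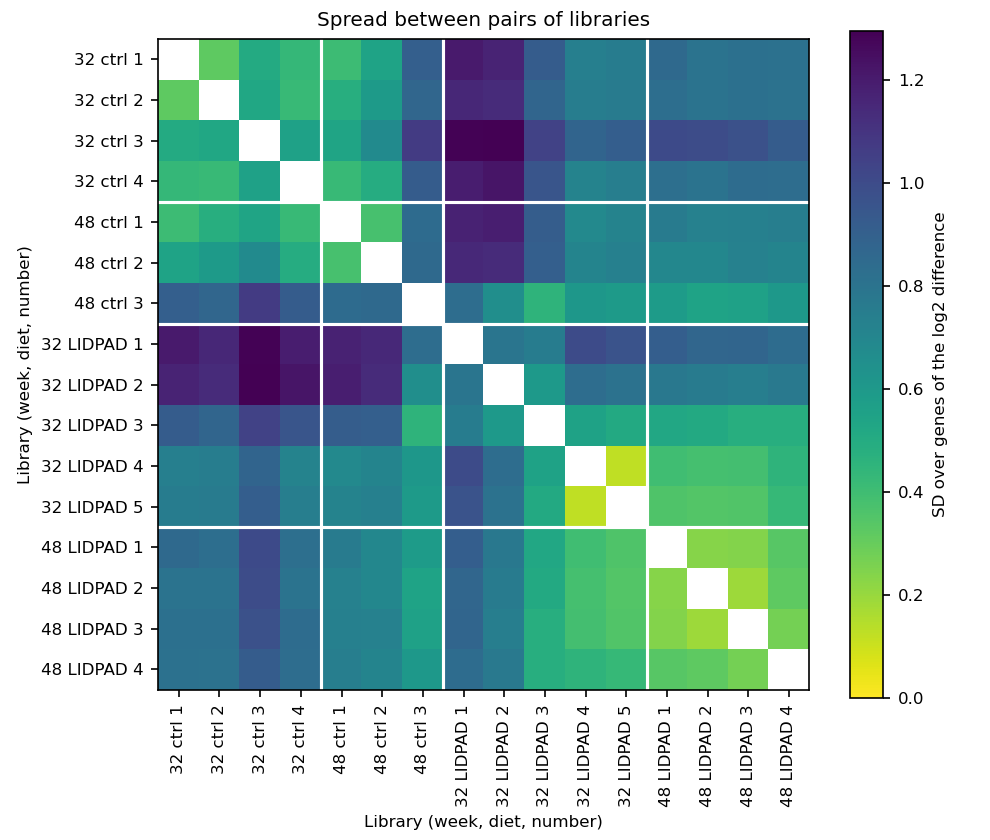
The SD over 2076 genes of the log2 difference is shown by colour for each pair of the 16 libraries (32 and 48 are weeks, ctrl is the control diet). The 4 week 48 LIDPAD livers form a close block of 0.189 to 0.337, with week 32 LIDPAD 4 and 5 (0.346 to 0.451 away) nearer to them than week 32 LIDPAD 1 to 3.

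The library labelled Week 48 control 3 went against its label in some genes and followed it in others. Hsd3b5, a steroid enzyme of male mouse liver, was at 0.951 FPM in it and at 176 and 169 FPM in the other 2 controls of that week, while Gpnmb, a marker of lipid-laden macrophages, was at 9.29 FPM against 0.154 and 0.453 FPM. Its distance from the other week 48 controls was 0.841 to 0.855 and from the week 48 LIDPAD livers 0.546 to 0.604. The library nearest to it was week 32 LIDPAD library 3, at 0.452. The other week 32 LIDPAD libraries lay 0.588 to 0.833 from it. Cholesterol synthesis genes had a median log2 level, relative to the week 32 controls, of -0.45 in it, -0.05 and -0.11 in the other week 48 controls and -1.68 to -1.31 in the week 48 LIDPAD livers. Its T and NK cell markers, at 0.53 on that scale, lay near the other controls (0.23 and 0.47) and below the week 48 LIDPAD livers (1.09 to 1.32), and its adipocyte markers, at -0.26, were also below those livers (0.92 to 1.26). The main counts, and the calls that rest on it, are given with and without it.

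Predicted genes and pseudogenes aside, the 3 largest rises in LIDPAD livers between week 32 and week 48, and the largest fall, were in genes of the daily clock or known to follow it, and several enzymes and transporters of hepatocyte metabolism fell. By limma with Benjamini-Hochberg adjustment, 50 of 14986 genes changed at an adjusted p under 0.05, 0.334% of those tested, of which 31 rose (0.207%) and 19 fell (0.127%). At an unadjusted p under 0.05 there were 1655. The groups of livers did not overlap for 49 of the 50 genes, and for 1137 of all genes tested (7.59%). On the same footing the 12 largest rises included Dbp, Per3, Usp2, Wee1 and Tef, and the 12 largest falls Arntl, Gldc, Cyp2f2, G6pc and Nfil3. The count moved with the libraries used. It was 147 (0.981%) without the library labelled Week 48 control 3, which left the LIDPAD log2 differences as they were, and 5 or 6 without any 1 week 48 LIDPAD library. Without week 32 LIDPAD library 1, 2, 3, 4 or 5 it was 94, 36, 33, 19 or 27. The split into higher and lower moved with the scale: 223 rose and 21 fell on the values as deposited, 52 and 6 on a common total, and 41 and 18 with TMM factors. The median of all genes was -0.02 on the log2 scale here and 0.09 on the values as deposited.

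The starts of 3 of the clock genes that changed are shown because each holds, in the 250 bases before its RefSeq start, letters of an element read by the factors named above. Each line runs 5′ to 3′ on the strand of the gene, from the RefSeq table of build GRCm38.p6, with the element in capitals. For Per3 (chr4:151044666-151044915, minus strand) these are 2 D-boxes, 205 and 158 bases before the start. For Tef they are an E-box 138 bases before its second listed start (chr15:81811164-81811413, plus strand). For Nfil3 the last 30 bases are given (chr13:52981040-52981069, minus strand), with the ROR element core read on the opposite strand 12 bases before the start. By the GENCODE gene positions given below, the Tef and Nfil3 stretches lie within the annotated gene.
Per3: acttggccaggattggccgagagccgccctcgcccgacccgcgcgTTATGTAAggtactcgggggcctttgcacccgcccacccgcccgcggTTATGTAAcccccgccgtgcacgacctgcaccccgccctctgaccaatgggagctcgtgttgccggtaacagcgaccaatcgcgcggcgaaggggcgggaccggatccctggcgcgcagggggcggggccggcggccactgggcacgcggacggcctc
Tef: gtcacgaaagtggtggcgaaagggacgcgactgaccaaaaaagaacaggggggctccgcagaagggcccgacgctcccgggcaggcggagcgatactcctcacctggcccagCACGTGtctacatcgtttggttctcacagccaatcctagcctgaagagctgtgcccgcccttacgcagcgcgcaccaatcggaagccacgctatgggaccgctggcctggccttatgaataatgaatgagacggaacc
Nfil3: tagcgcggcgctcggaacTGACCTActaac
The motifs searched on both strands were the E-box CACGTG, found in 6.02% of 32851 such windows, the D-boxes TTATGTAA and TTACGTAA, in 0.932%, and the ROR element core TAGGTCA, in 2.23%. Of 14 genes looked up (clock genes with Usp2, Wee1 and Rnf152), 12 had an entry and 5 of these a match, the other 2 being Rnf152 (ROR element core, 205 bases before the start) and Cry1 (E-box, 60 bases before the start). Such matches describe these letters only.

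Dbp, Per3 and Tef, which CLOCK and BMAL1 are known to drive, rose by week 48. Dbp (chr7:45705088-45710203), a D-box activator, stood at 1.39, 1.37, 3.15, 1.41 and 4.60 FPM in the 5 week 32 livers and at 16.3, 21.4, 18.3 and 18.5 FPM in the 4 week 48 livers. Every week 48 liver was above every week 32 liver. The log2 difference was 2.86 ± 0.53 (SE), a 7.24-fold rise on the log2(FPM + 0.5) scale, with an adjusted p of 0.0364 by limma. Per3 (chr4:151003652-151044665), a period gene, stood at 9.99, 5.20, 5.20, 3.80 and 5.50 FPM at week 32 and at 38.0, 38.4, 39.7 and 38.0 FPM at week 48. The week 48 livers lay within 2 FPM of one another, and the log2 difference was 2.67 ± 0.41 (SE, adjusted p = 0.0133, limma).

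Tef (chr15:81802421-81826863), a D-box activator like Dbp, rose from 43.4, 41.2, 26.6, 25.2 and 29.7 FPM to 100.3, 108, 103 and 101 FPM. Its log2 difference was 1.65 ± 0.25 (SE, adjusted p = 0.0125, limma). Usp2, a deubiquitinase whose RNA is known to cycle in liver, rose from 2.64, 1.74, 2.38, 1.49 and 1.59 FPM to 10.6, 9.32, 8.93 and 9.79 FPM. This was a 4.18-fold rise, with a log2 difference of 2.06 ± 0.27 (SE) and an adjusted p of 0.00305 by limma. Wee1, a kinase that holds cells before mitosis and is a known clock target, rose from between 3.26 and 5.81 FPM to between 15.4 and 17.1 FPM (log2 difference 1.69 ± 0.28, SE, limma adjusted p = 0.0209). Rnf152, a ubiquitin ligase of the lysosome, rose from 8.70, 14.7, 14.0, 16.2 and 16.7 FPM to 35.8, 44.7, 37.7 and 38.7 FPM, with the smallest p among the 24 largest changes (log2 difference 1.48 ± 0.17, SE, limma adjusted p = 0.00208).

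The opposite arm was lower. Arntl (chr7:113207465-113314126) stood at 21.4, 13.8, 14.7, 20.3 and 14.2 FPM at week 32 and at 3.94, 3.71, 4.92 and 3.83 FPM at week 48. The groups did not overlap, and the log2 difference was -1.90 ± 0.24 (SE), a 3.73-fold fall, with an adjusted p of 0.00305 by limma. Nfil3 (chr13:52967209-52981073), the D-box repressor, stood at 11.8, 12.9, 13.1, 15.9 and 11.5 FPM at week 32 and at 5.18, 4.84, 5.74 and 5.42 FPM at week 48 (log2 difference -1.22 ± 0.16, SE, limma adjusted p = 0.00305). Arntl, Nfil3, Rnf152 and Usp2 were the 4 of the 24 largest changes called when any 1 library was left out and under every other setting tried. The calls of the other 20, Dbp, Per3, Tef and Wee1 among them, were lost without any 1 of the week 48 LIDPAD libraries. With week 32 libraries 4 and 5 alone Dbp did not pass either (log2 difference 2.61, limma adjusted p = 0.0626).

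Several clock genes that did not pass the test are given here, some lower and some higher at week 48. Cry1 lay on the side of Arntl, and Per2 on that of Per3. Npas2, which can stand in for CLOCK, stood at 4.33 to 6.98 FPM at week 32 and 1.06 to 2.06 FPM at week 48 (log2 difference -1.67, limma adjusted p = 0.104). Clock itself was at 63.3 to 87.8 FPM and 47.1 to 55.5 FPM (-0.47, limma adjusted p = 0.0594), and Cry1, the repressor, at 5.67 to 7.88 FPM and 2.65 to 3.82 FPM (-0.97, limma adjusted p = 0.0729). For these 3 genes the week 32 livers had the higher values without overlap. The period gene Per2 stood at 9.19 to 15.5 FPM at week 32 and 22.4 to 31.3 FPM at week 48 (1.04, limma adjusted p = 0.0638), and the D-box factor Hlf at 6.46 to 17.6 FPM and 26.3 to 28.8 FPM (1.20, limma adjusted p = 0.0812). Of the REV-ERB genes, Nr1d2 stood at 30.4 to 56.2 FPM and 102 to 125 FPM (1.29, limma adjusted p = 0.0843), and Nr1d1 at 12.1 to 17.4 FPM and 24.0 to 30.6 FPM (0.84, limma adjusted p = 0.562).

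Of the 19 clock genes listed, all tested, 3 rose (Dbp, Per3, Tef) and 2 fell (Arntl, Nfil3), against 0.207% and 0.127% of all genes. At an unadjusted p under 0.05 by limma there were 14 of the 19, where 11% of all genes were. The median log2 difference was 0.51, with 14 members above 0 and 5 below, beside -0.02 over all genes. The log2 level of Arntl less that of Dbp, a contrast of the 2 arms, was 3.54, 2.94, 2.06, 3.44 and 1.52 in the week 32 livers and -1.92, -2.38, -1.80 and -2.13 in the week 48 livers. Arntl was above Dbp in every week 32 LIDPAD liver and below it in every week 48 LIDPAD liver on this scale. The scale does not correct for transcript length, so only the change between weeks can be read. In controls the contrast was 5.26, 5.12, 3.45 and 1.13 at week 32. At week 48 it was 0.776, -1.13 and 1.37, the last from the library labelled Week 48 control 3. The group mean fell in controls too, from 3.74 to 0.34, with overlap. With week 32 libraries 4 and 5 alone, and without the library labelled Week 48 control 3, 11 of the 19 were higher and 5 lower at week 48, against 5.62% and 4.41% of all genes.

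**Figure D2:**
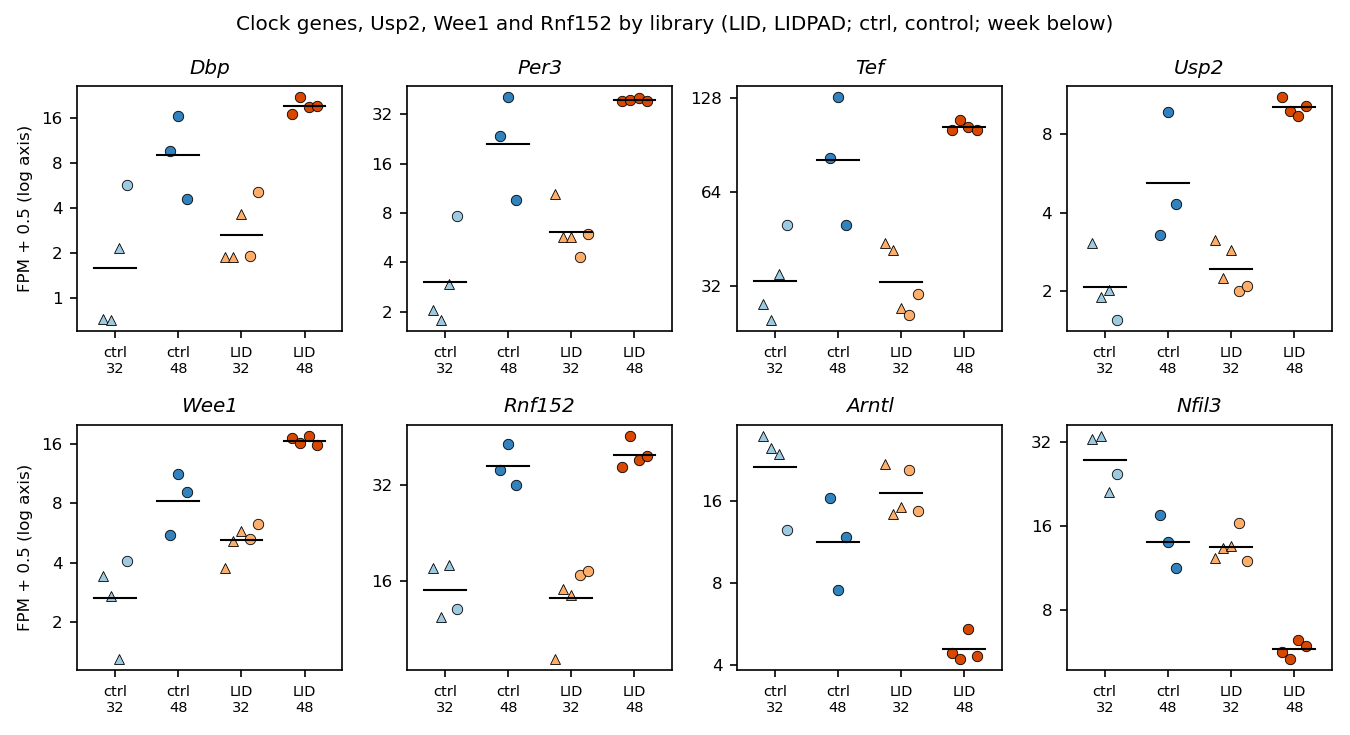
FPM + 0.5 on a log axis for clock genes, Usp2, Wee1 and Rnf152 in each library, with the mean on that scale as a bar (LID is LIDPAD; triangles mark libraries with most reads in the third column, circles those with most in the first). Dbp, Per3 and Tef lie higher and Arntl and Nfil3 lower in all 4 week 48 LIDPAD livers than in all 5 at week 32, and several controls moved the same way.

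Most of these genes had the same sign of difference in livers of the control diet, and 11 of the 50 passed the test there. Of the 50 genes, 47 had the same sign in the controls, where 55.4% of all genes did, and 49 had it without the library labelled Week 48 control 3, where 64.4% of all genes did. In the controls 164 genes changed (1.09%), or 31 (0.207%) without that library. The median size of the 50 was 1.06 on the log2 scale in LIDPAD livers and 0.53, in the same direction, in controls. In 3 of the 50 the control change was at least as large. The 50 were chosen by the LIDPAD test, which tends to enlarge their LIDPAD sizes but not their control sizes. Neither figure therefore shows a larger change in LIDPAD livers.

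Per3 rose in controls from 1.55, 1.28, 2.47 and 7.23 FPM to 23.0, 40.3 and 9.17 FPM, the last from the library labelled Week 48 control 3. The log2 difference was 2.79 (limma adjusted p = 0.0172), or 3.35 without that library (0.00695). Tef rose by 1.29 (limma adjusted p = 0.0385; 0.0191 without that library) and Rnf152 by 1.27 (0.0149; 0.0191 without it). For Nfil3, Usp2 and Wee1 the control calls were lost without it. Nfil3 differed by -0.97 (limma adjusted p = 0.0207) and then by -0.81 (0.0868), Usp2 by 1.33 (0.0493) and then by 1.46 (0.0984), and Wee1 by 1.64 (0.0276) and then by 1.57 (0.0907). The size of each difference was thus similar with and without the library. Dbp did not pass, at 0.222, 0.215, 1.66 and 5.19 FPM and then 9.10, 16.0 and 4.07 FPM (log2 difference 2.50, limma adjusted p = 0.0625), nor did Arntl (-0.90, limma adjusted p = 0.126). Age, time on the diet and table all differed between the weeks in both diets and cannot be told apart. The division of reads largely moved with the week in controls too. Week 32 control libraries 1 to 3 had the largest share of reads in the third column. Week 32 control library 4, like every week 48 library, had it in the first. Among the week 32 controls, library 4 had the highest Per3 and Dbp, and the part of the division was not tested. The hour of collection is unknown for both weeks, clock RNA is known to follow it, and its part in these differences was not tested.

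The change in LIDPAD livers differed from that in controls for 1 gene of 14986 (0.00667%), and for 1380 at an unadjusted p under 0.05. By edgeR no gene differed (1707 at an unadjusted p under 0.05), and by DESeq2 98 did. Within the libraries that share the division of reads of week 48, 24 genes differed by limma, and 474 once the library labelled Week 48 control 3 was also left out. The 1 gene over all libraries was Angptl4 (chr17:33773750-33781830), whose product inhibits lipoprotein lipase and which fasting and PPAR alpha are known to raise. In LIDPAD livers Angptl4 stood at 33.6, 32.3, 28.8, 22.4 and 29.8 FPM at week 32 and at 27.6, 29.1, 21.8 and 28.0 FPM at week 48 (log2 difference -0.13 ± 0.21, SE, limma adjusted p = 0.841). In controls it fell from 64.3, 92.6, 81.2 and 72.1 FPM to 10.3, 25.3 and 12.2 FPM (-2.34, limma adjusted p = 0.00043). The LIDPAD groups overlapped and the control groups did not. The difference between the changes was 2.21 ± 0.31 (SE, limma adjusted p = 0.0402). It did not pass without the library labelled Week 48 control 3 (2.08, limma adjusted p = 0.202), and no gene passed when any 1 of the 9 LIDPAD libraries was left out. By limma, none of the 24 largest LIDPAD changes was shown to differ in size from that in controls.

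**Figure D3:**
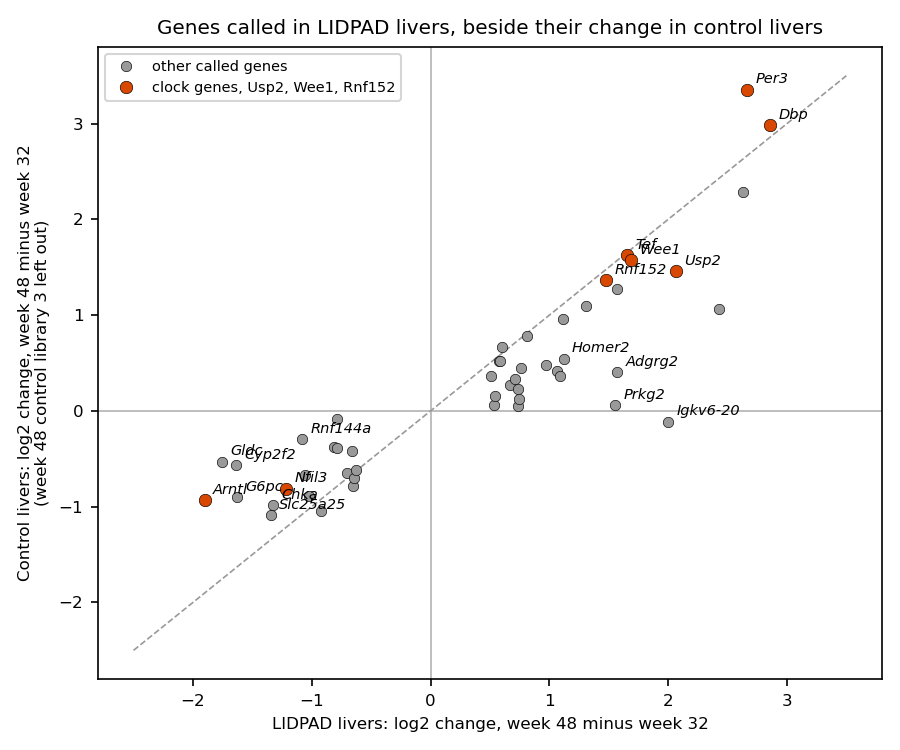
Each point is 1 of the 50 genes that changed in LIDPAD livers, with its log2 difference of week 48 from week 32 in LIDPAD livers across and that in control livers, without the library labelled Week 48 control 3, upward (dashed line, equal change). Dbp (2.86 and 2.98) and Per3 (2.67 and 3.35) lie near or above the line, Gldc (-1.75 and -0.53) lies nearer to no change in controls, and 49 of the 50 have the same sign on both axes.

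Apart from the clock genes named above, the largest falls included enzymes of hepatocyte metabolism. Whether these enzymes follow the hour of collection was not tested. Gldc (chr19:30098447-30175429), the glycine decarboxylase of mitochondria, stood at 65.5, 227, 87.8, 83.5 and 72.6 FPM at week 32 and at 25.3, 30.4, 26.1 and 30.6 FPM at week 48 (log2 difference -1.75 ± 0.28, SE, limma adjusted p = 0.0156). Cyp2f2 (chr7:27119909-27133660), a cytochrome P450 of periportal hepatocytes, stood at 58.4, 198, 140.4, 119.6 and 81.1 FPM and then at 34.4, 40.1, 33.0 and 32.2 FPM (-1.64 ± 0.25, SE, limma adjusted p = 0.0133). G6pc (chr11:101367561-101377903), the glucose-6-phosphatase that releases glucose from the liver, stood at 362, 231, 183, 189.9 and 222 FPM and then at 78.0, 81.4, 84.2 and 56.3 FPM (-1.63 ± 0.26, SE, limma adjusted p = 0.0156). In all 3 genes the week 48 livers were below every week 32 liver. In controls the differences were -0.30 for Gldc (limma adjusted p = 0.682), -0.48 for Cyp2f2 (0.431) and -1.16 for G6pc (0.076). The difference between diets did not pass for Gldc (-1.45 ± 0.43, SE, limma adjusted p = 0.484) or Cyp2f2 (-1.16 ± 0.38, SE, 0.499). With week 32 libraries 4 and 5 alone the LIDPAD call of G6pc was lost (-1.47, limma adjusted p = 0.0872).

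Slc25a25, a calcium-regulated ATP-magnesium carrier of mitochondria, fell from between 115 and 159 FPM to between 42.4 and 62.8 FPM (log2 difference -1.35 ± 0.25, SE, limma adjusted p = 0.0361). Chka, the choline kinase that starts phosphatidylcholine synthesis, fell from between 88.2 and 148 FPM to between 39.8 and 49.4 FPM (-1.33 ± 0.25, SE, limma adjusted p = 0.0364). Neither gene's groups overlapped. The remaining large falls were Rnf144a (-1.08), Slc45a3 (-1.06), Jund (-1.02), Rfxank (-0.92) and Asap2 (-0.81), with limma adjusted p from 0.0372 to 0.0477. Jund encodes an AP-1 subunit and Rfxank a subunit of the factor that drives MHC class II genes. In controls the log2 differences were -1.01 for Slc25a25, -0.77 for Chka and -0.03 for Rnf144a. They were -0.62 for Slc45a3, -0.81 for Jund, -1.04 for Rfxank and -0.36 for Asap2. Of these only Rfxank passed in controls (limma adjusted p = 0.0305, or 0.0883 without the library labelled Week 48 control 3). With week 32 libraries 4 and 5 alone Chka (-1.42, limma adjusted p = 0.0637), Rnf144a (0.14), Slc45a3 (0.0582), Jund (0.195), Rfxank (0.167) and Asap2 (0.117) lost their calls.

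Genes other than the clock genes, Usp2, Wee1 and Rnf152 rose as well. Adgrg2, an adhesion receptor, stood at 1.84, 1.00, 4.43, 2.99 and 3.01 FPM at week 32 and at 8.58, 8.91, 7.59 and 7.76 FPM at week 48 (log2 difference 1.57 ± 0.30, SE, limma adjusted p = 0.0364). Homer2, a scaffold protein, stood at 8.69, 4.74, 4.97, 6.11 and 4.98 FPM and then at 12.8, 13.5, 12.4 and 13.7 FPM (1.12 ± 0.19, SE, limma adjusted p = 0.0272). Homer2 was at 16.3 to 20.4 FPM in the week 32 controls. In the week 48 controls it was at 25.3, 28.4 and 13.9 FPM, the last from the library labelled Week 48 control 3. The later LIDPAD livers lay above the earlier ones and below every control of either week. Without that control library their log2 difference from the week 48 controls was -1.01 (limma adjusted p = 0.00246). Slc35d1, a nucleotide-sugar transporter of the endoplasmic reticulum, rose from between 21.2 and 54.7 FPM to between 66.7 and 86.6 FPM (1.09 ± 0.21, SE, limma adjusted p = 0.0364). Tenm3 rose from between 15.6 and 35.9 FPM to between 46.2 and 49.8 FPM (0.97 ± 0.19, SE, limma adjusted p = 0.0364). Prkg2, a cGMP-dependent kinase, rose from between 0 and 1.05 FPM to between 1.54 and 3.30 FPM (1.55 ± 0.30, SE, limma adjusted p = 0.0364), close to the lowest levels tested. In controls the log2 differences were 0.24 for Homer2, 0.42 for Slc35d1, 0.38 for Tenm3 and 0.14 for Prkg2 (limma adjusted p from 0.391 to 0.878). Igkv6-20, an immunoglobulin kappa variable segment, was the called gene whose groups overlapped, at 1.66, 0, 0.250, 0.362 and 0.0858 FPM and then at 1.19, 2.62, 2.98 and 6.30 FPM (2.00 ± 0.40, SE, limma adjusted p = 0.0428), and near-identical segments could share its reads. Of the other 26 genes called, 8 were predicted genes or pseudogenes, and the 18 with names had log2 differences of 0.50 to 0.81 (12 genes) and -0.63 to -0.79 (6 genes). With week 32 libraries 4 and 5 alone Adgrg2 (1.31, limma adjusted p = 0.0591), Homer2 (0.0749), Tenm3 (0.0817), Prkg2 (0.127) and Igkv6-20 (0.0727) lost their calls.

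**Figure D4:**
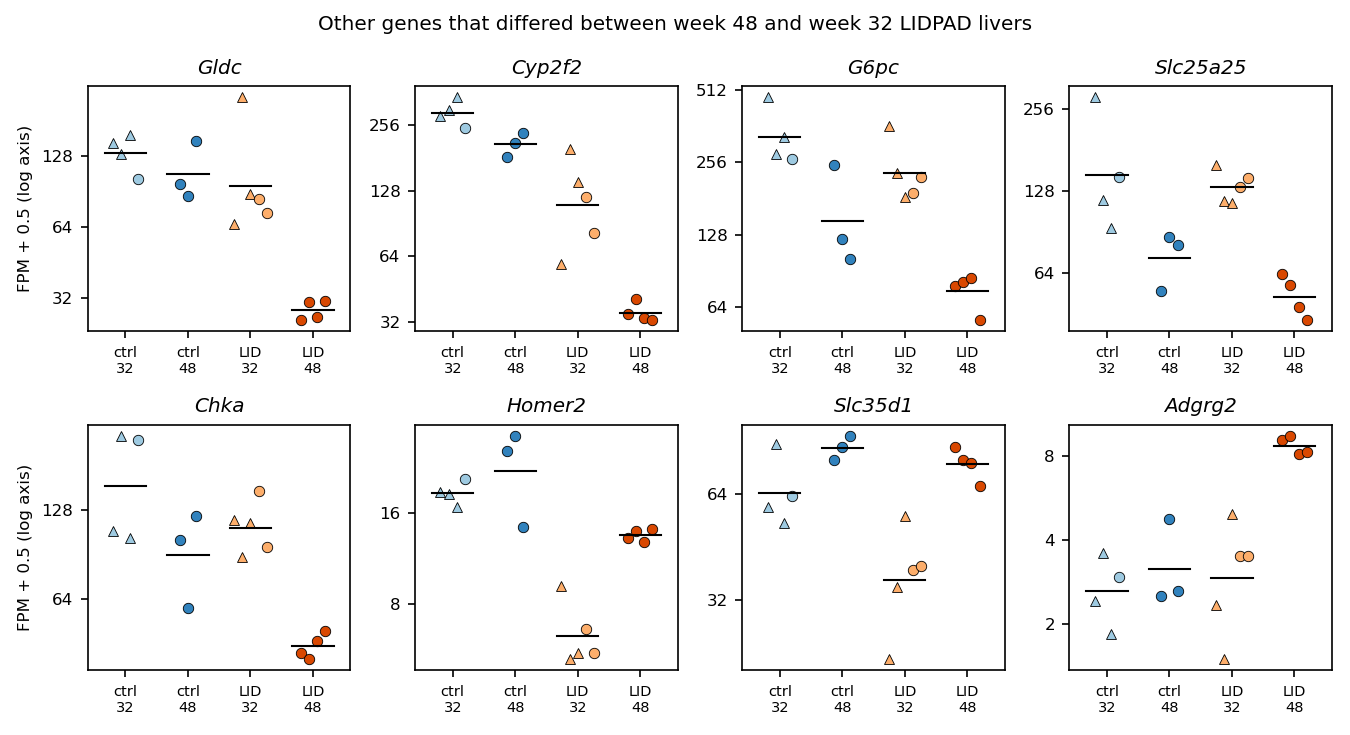
FPM + 0.5 on a log axis for 8 genes other than the clock genes, Usp2, Wee1 and Rnf152 in each library. The bar is the mean on that scale, with symbols as for the clock genes. Gldc, Cyp2f2, G6pc, Slc25a25 and Chka are lower, and Homer2, Slc35d1 and Adgrg2 higher, in all 4 week 48 LIDPAD livers than in all 5 at week 32, where for example Gldc ran from 65.5 to 227 FPM.

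Genes of the disease itself did not pass the test between the 2 ages. Over 40 lists, 807 of 919 distinct members were tested and 7 passed (0.867%, beside 0.334% of all genes), the 5 clock genes, Cyp2f2 and G6pc. In 36 lists no member passed by the main limma fit, in which all libraries weigh the same. Over all 40 lists 116 members were at an unadjusted p under 0.05, 14.4% beside 11% of all genes. By edgeR 6 passed, 0.743% beside 0.2%, and by DESeq2 46, 5.7% beside 2.15%. List medians ran from -0.63 to 0.51 on the log2 scale. Several genes with narrow week 48 values lay just outside the threshold. Ppara, the nuclear receptor for fatty acids, stood at 37.4, 61.8, 57.1, 96.6 and 105 FPM and then at 147, 149, 143 and 147 FPM (log2 difference 1.13, limma adjusted p = 0.0506). Acot4, a peroxisomal thioesterase that PPAR alpha is known to raise, stood at 9.82 to 15.8 FPM and then at 32.0 to 33.0 FPM (1.30, limma adjusted p = 0.0656). Creld2, a gene of endoplasmic reticulum stress, stood at 18.2 to 33.0 FPM and then at 9.26 to 10.4 FPM (-1.22, limma adjusted p = 0.0506). In these 3 genes the groups did not overlap.

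Markers of lipid-laden macrophages were high in LIDPAD livers at both ages. Gpnmb stood at 64.1, 371, 22.8, 52.0 and 45.8 FPM at week 32 and at 83.2, 51.9, 66.9 and 57.5 FPM at week 48, with controls below 0.5 FPM apart from the library labelled Week 48 control 3. Week 32 library 2 was far above the rest, and the groups overlapped (log2 difference -0.06 ± 0.73, SE, limma adjusted p = 0.985). Trem2, a lipid receptor of these cells, stood at 9.63 to 34.3 FPM and then at 12.5 to 15.6 FPM (-0.14 ± 0.35, SE, limma adjusted p = 0.904). Of 17 genes listed for these macrophages, none passed between the ages by limma, edgeR or DESeq2. None was at an unadjusted p under 0.05 by limma, where 11% of all genes were. The median was -0.39 with 16 below 0. Against the controls of the same week 16 of the 17 were higher at week 32 and 12 at week 48, beside 19.6% and 9.79% of all genes, the latter without the library labelled Week 48 control 3. With that library 9 were higher at week 48, beside 3.61% of all genes.

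Collagen RNA was likewise high at both ages. Col1a1, the main fibrillar collagen, stood at 11.4, 45.9, 89.2, 41.8 and 49.5 FPM and then at 68.6, 53.3, 66.6 and 58.4 FPM (log2 difference 0.62 ± 0.62, SE, limma adjusted p = 0.74). Week 32 library 1 was lowest and library 3 highest, with the week 48 livers between them. Of 28 matrix genes none passed by the main limma fit or edgeR, 1 was lower by DESeq2, and the median was 0.09. At an unadjusted p under 0.05 by limma there was 1, where 11% of all genes were. With library weights 3 were higher and 1 lower, beside 1052 and 829 of 14986 genes tested. Against week 32 libraries 4 and 5 alone the median was 0.13. Against controls 26 of the 28 were higher at week 32, beside 19.6% of all genes, and 25 at week 48 without the library labelled Week 48 control 3, beside 9.79% (13 with it, beside 3.61%). The summed level of the 5 stellate cell markers was 116 to 235 FPM at week 32 and 246 to 288 FPM at week 48, and that of the bile duct markers 13.2 to 56.2 FPM and 11.0 to 14.4 FPM. Timp1, an inhibitor of matrix breakdown, stood at 0.521 to 2.91 FPM and then at 1.86 to 2.18 FPM, and Acta2 of myofibroblasts at 1.36 to 7.48 FPM and then at 2.21 to 4.88 FPM.

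Cholesterol synthesis was low at both ages. Sqle, the squalene epoxidase, stood at 43.1, 2.97, 20.8, 6.71 and 9.95 FPM and then at 5.18, 5.25, 5.09 and 10.9 FPM, with controls at 60.9 to 111 FPM. The LIDPAD groups overlapped (log2 difference -0.82 ± 0.51, SE, limma adjusted p = 0.589). All 25 genes of the pathway were lower than in controls at week 32, beside 16.7% of all genes, and 20 at week 48 without the library labelled Week 48 control 3, beside 5.18% (19 with it, beside 1.98%). None passed between the ages by limma, edgeR or DESeq2, 3 were at an unadjusted p under 0.05, and the median was 0.01. Hsd3b5 was at 0 to 1.86 FPM in the 9 LIDPAD livers and at 88.4 to 189.6 FPM in the controls apart from the library labelled Week 48 control 3.

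Cyp2e1, Glul and Slc1a2, the last chosen after its values were seen, differed among the week 32 livers. Cyp2e1, the ethanol-oxidising P450 of hepatocytes around the central vein, stood at 294, 426 and 933 FPM in week 32 libraries 1 to 3, at 2584 and 2324 FPM in libraries 4 and 5, and at 2218, 2985, 2697 and 2964 FPM at week 48. Glul, the glutamine synthetase of the same zone, stood at 168, 93.0 and 253 FPM, at 911 and 851 FPM, and at 758, 881, 823 and 949 FPM. Slc1a2, a glutamate transporter, stood at 8.98, 1.57 and 25.1 FPM, at 81.7 and 87.4 FPM, and at 119.7, 139.7, 102 and 139 FPM. In these 3 genes libraries 1 to 3 were lowest and libraries 4 and 5 were near or within the week 48 range. None passed over all 5 libraries (log2 differences 1.53, 1.43 and 2.61, limma adjusted p = 0.419, 0.333 and 0.236). Of the 28 pericentral and periportal genes listed, 1 passed (Cyp2f2, lower, beside 0.127% of all genes). At an unadjusted p under 0.05 by limma there were 13, where 11% of all genes were. The median was -0.04 with 13 above and 15 below 0.

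Library 1 of week 32 also carried the plasma cell signal, and it stood apart in other marker lists too. Levels here are median log2 levels relative to the week 32 controls. Erythroid markers were at 1.80 in it and at -0.74 to -0.40 in the other week 32 LIDPAD libraries. Neutrophil markers were at 3.03 in it and at 0.54 to 0.84 in those libraries. Igkc, the kappa light chain, stood at 661, 17.7, 15.9, 9.90 and 13.1 FPM at week 32 and at 37.6, 88.8, 105 and 46.4 FPM at week 48, and Jchain, which joins IgA and IgM, at 154, 3.87, 3.68, 3.70 and 5.56 FPM and then at 8.86, 24.6, 20.4 and 12.2 FPM. The week 48 livers were above 4 of the 5 week 32 livers and below library 1 in both genes. The log2 differences were 1.05 ± 0.88 for Igkc and 0.75 ± 0.80 for Jchain (SE, limma adjusted p = 0.688 and 0.764). The sign turned by edgeR (-1.02 and -1.01) and by DESeq2 (-1.05 and -1.06). Of the 20 B and plasma cell genes tested none passed by the main limma fit, edgeR or DESeq2. None was at an unadjusted p under 0.05 by limma, where 11% of all genes were. With library weights 8 were higher and none lower, beside 1052 and 829 of 14986 genes tested.

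**Figure D5:**
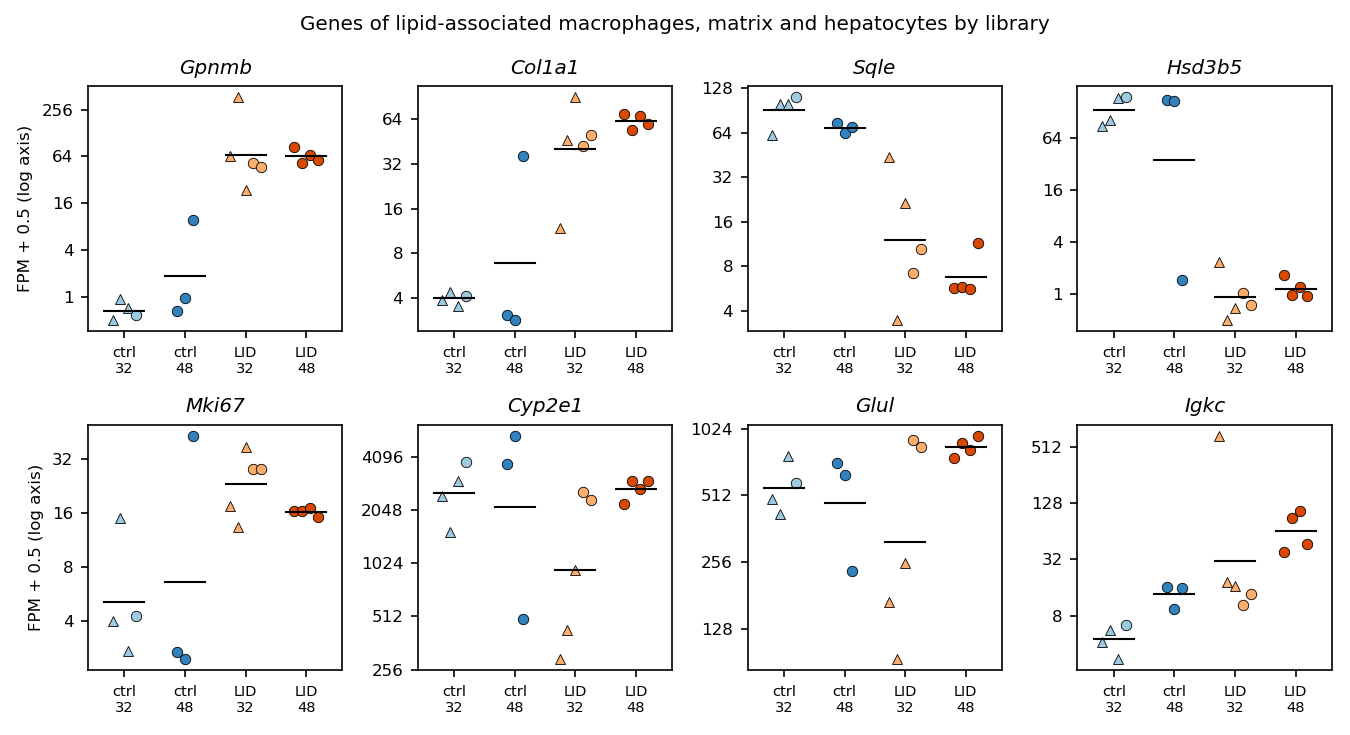
FPM + 0.5 on a log axis for 8 genes of macrophages, matrix, hepatocytes, dividing cells and plasma cells in each library, with the mean on that scale as a bar and symbols as for the clock genes. The 4 week 48 LIDPAD livers lie close together within or near the wider week 32 range, such as Gpnmb at 51.9 to 83.2 FPM within 22.8 to 371 FPM.

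Set against week 32 libraries 4 and 5 alone, which share the division of reads with the week 48 libraries and lie closest to them, 62 genes differed (0.414%), and 1503 (10%) once the library labelled Week 48 control 3 was also left out. Of the 50 genes, 16 were among the 62 and all 50 kept their direction. Without that control library, 11 of 29 cell cycle genes were lower at week 48 and none higher, beside 4.41% of all genes lower, with a median of -0.53. Mki67, a marker of dividing cells, stood at 17.1, 12.9, 37.1, 27.9 and 27.6 FPM at week 32 and at 16.0, 15.9, 16.6 and 14.8 FPM at week 48. It was lower than in libraries 3 to 5 and between libraries 1 and 2. Its log2 difference was -0.79 against libraries 4 and 5 (limma adjusted p = 0.00101, or 0.811 with the control library kept) and -0.52 against all 5 (0.808). Over all 5 libraries no cell cycle gene passed by the main limma fit, edgeR or DESeq2, and the median was -0.26. None was at an unadjusted p under 0.05 by limma, where 11% of all genes were. With library weights 1 was higher and 7 lower, beside 1052 and 829 of 14986 genes tested. In the same narrower comparison the 20 B and plasma cell genes had a median of 0.63, beside 0.29 over all 5 libraries. Over all 5 libraries the 35 genes of fatty acid oxidation had a median of 0.26, with 29 above 0 and 6 below. Of these 35 genes, 7 were at an unadjusted p under 0.05 by limma, where 11% of all genes were. In the narrower comparison their median was -0.22, so its sign turned with the libraries used. Libraries 4 and 5 are 2 libraries that differed from each other by an SD of 0.123, less than any other pair, so the spread of that comparison comes mainly from the other groups. The only week 32 control library kept there is library 4, a lone sample assumed to vary like the other groups.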

How the data were processed

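Liver RNA was sequenced and the authors deposited 1 table per week, in normalised signal per gene (FPM, fragments relative to library size), per the file headers. The submitters' processing notes name HISAT2, featureCounts, DESeq2 and build GRCm38. Columns held whole reads after rescaling (100% of values within 0.02 reads). Runs of 4 columns were averaged as 1 library by the rule of the comparison; their reads differed by a chi-square per gene of 2.03 to 2.11 within a library and of at least 2.54 between libraries of a group. One median-of-ratios factor over 16463 genes and 16 libraries replaced the separate scale of each table. Genes at 1 FPM or more in at least 4 of 9 LIDPAD or 3 of 7 control libraries were kept. limma 3.58.1 (R 4.3.3, trended, 4 group means, 2-sided, Benjamini-Hochberg adjusted p under 0.05) was run on log2(FPM + 0.5), a scale that understates changes of low genes. On the recovered reads, edgeR 4.0.16 called 30 genes and DESeq2 1.42.0 called 322. Tests were tried on simulated data.

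Named genes were the 12 largest rises and 12 largest falls among called genes (group mean of at least 2 FPM, at most 1 overlapping library on either side, no predicted genes or pseudogenes), for each list its 2 members of lowest p, genes called for the difference between diets, and 28 index genes; the text gives those with most bearing. Members, lists and rule were chosen with earlier results of these data known. Igkc, Slc1a2 and Cpa1, Pnlip, Ly6g and Lep were named after their values were seen or as markers. Gene positions are from GENCODE M21 (GRCm38) and promoter sequences from RefSeq (GRCm38.p6). Alternatives were other pseudocounts, filters, scales, weights, tools, libraries left out and a comparison within 1 division of reads. That comparison without the library labelled Week 48 control 3, the other division of reads and the close pair as 1 library were chosen after seeing the data.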

Additional observations from a re-analysis of the deposited data

Results flagged for a closer look

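For 71 genes, the number of reads and the share of mitochondrial rRNA, each in 3 groups, 219 sets of 4 or 5 libraries were examined for 1 library far from the rest, measured as its gap to the nearest library over the range of the group. There were 16 such sets among the 219, and chance alone gives about 1 in 20, so many of them may be due to chance. Genes of 1 library can also move together, so the sets are not independent. In Week 32 LIDPAD, library 1 stood apart in Rnf152 (0.7287), Cidec (0.7499), Cfd (0.735), Jchain (0.8971), Igfbp1 (0.7145) and Igkc (0.8655). Library 2 of that group stood apart in Gldc (0.7649), Cyp4a14 (0.7926) and Insr (0.786). In Week 48 LIDPAD, library 4 stood apart in Sqle (0.9604), library 3 in Fasn (0.9031) and library 1 in Prox1 (0.8385). In Week 32 control, library 2 stood apart in Jund (0.9767), library 3 in Per2 (0.8776) and Atf4 (0.9268), and library 1 in Prox1 (0.9695).

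Angptl4 was the 1 gene whose LIDPAD change and control change differed by the test of the difference itself, by 2.2092 on the log2 scale.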

How the results depend on the processing

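The 50 genes changed in LIDPAD livers became 5 to 147 when any 1 library was left out, the 164 in controls 20 to 270, and the 1 gene of the difference between diets 0 to 3. In that order of LIDPAD, control and difference, the counts were 16, 70 and 0 without a filter, 244, 332 and 0 on the values as deposited, 1881, 498 and 3 with library weights, 1503, 1544 and 474 within 1 division of reads without the library labelled Week 48 control 3, and 322, 820 and 98 by DESeq2. Quantile scaling gave 96, 69 and 0, with 64 rises and 32 falls in LIDPAD livers. Fits on the compared groups alone gave 110 LIDPAD and 5 control genes. For LIDPAD livers and the difference, the counts were 20 and 0 without the trend, 16 and 0 with the close pair as 1 library, 561 and 0 with week 32 libraries of the other division of reads, and 30 and 0 by edgeR. A common total gave 41 control genes and 0 for the difference, and 1 division of reads gave 274 and 24. Limma fits with 0 for the difference had 688 to 2465 genes at an unadjusted p under 0.05. The cause of these moves was not tested. Same-numbered libraries did not deviate together (correlations -0.15 to 0.10), so the numbers pair nothing. A replicate block gave 10, 5 and 0 genes, and 0.0082 for the log2 difference of Cd36.

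The direction of the 24 largest changes held under every alternative. Among genes not called, signs turned as follows (log2 differences). Within 1 division of reads they were 0.035 for Angptl4, 0.39 for Gpnmb, 0.33 for Trem2, -0.20 for Col3a1, -0.084 for Timp1, -0.27 for Cidec, -0.022 for Fasn, -0.63 for Scd1, -0.11 for Cd8a, 0.022 for Krt19 and -0.051 for Glul. With weights they were 0.30 for Gpnmb, 0.24 for Trem2, -0.14 for Col3a1, -0.088 for Timp1, -0.17 for Cidec, -0.40 for Scd1 and -0.048 for Cd8a. Gpnmb was 0.058 as deposited and 0.041 on a common total. Cd36 was 0.10 as deposited, 0.079 on a common total, 0.014 with TMM factors, 0.018 with the close pair as 1 library and 0.082 with the other division, where Cfd was 0.46. Cd8a was -0.026 with quantile scaling. Igkc was -1.02 by edgeR and -1.05 by DESeq2, and Jchain -1.01 and -1.06. Leaving out libraries gave -0.44 to 0.56 for Gpnmb, -0.30 to 0.15 for Trem2, -0.024 to 0.80 for Col3a1, -0.15 to 0.12 for Cd36, -0.12 to 0.77 for Cidec, -1.29 to 0.012 for Cfd and -0.026 to 0.15 for Cd8a. Depth ran from 10.9 to 34.6 M reads, and its effect on the calls was not tested.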
